A study of Mus musculus with 6 samples.

Results

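The keratin genes of the mouse were followed through 6 lists of open chromatin from intestinal crypts. A member was any protein-coding gene whose symbol is Krt followed by a number in GENCODE M21 on GRCm38, and the keratin-associated protein genes (Krtap) were left out. This gave 53 genes of 21938 protein-coding genes on chromosomes 1 to 19, X and Y. The rule used names and positions and no measured value. Of the 53 genes, 27 lay on chromosome 11 (chr11:99227761-100274871, 1.05 Mb) and 26 on chromosome 15 (chr15:101342444-102037027, 0.695 Mb), with 5 kb added at each end. By the tissue in which they are best known, 5 were keratins of simple epithelia, 20 of skin and other stratified epithelia and 23 of the inner root sheath, companion layer and hair. The other 5 (Krt222, Krt23, Krt80, Krt88 and Krt90) were left unclassed.

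The study performed ATAC-seq, in which the transposase Tn5 cuts and tags accessible DNA, on crypts from the intestine of 3 Arid3a WT and 3 Arid3a cKO samples. The cKO carried floxed alleles of Arid3a, a DNA-binding protein of the ARID family, and a tamoxifen-inducible Cre recombinase driven by the Villin promoter (VillinCre-ERT2), which is active in intestinal epithelial cells. Non-epithelial cells of a crypt preparation therefore keep Arid3a. Both genotypes received tamoxifen on 3 consecutive days and crypts were collected 1 month after the first injection. Age, sex and strain are not given in the labels, which also do not say that each sample was a separate mouse, so p-values measure the spread between these samples.

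Keratins form the intermediate filaments of epithelial cells. A type I keratin, mostly encoded on chromosome 11, pairs with a type II keratin, encoded on chromosome 15. Single-layered epithelia such as the gut use Krt8 with Krt18, Krt19 and Krt20. The basal layer of the epidermis uses Krt5 with Krt14, the layers above it Krt1 with Krt10, and the hair and its sheath use a further large set. Krt18 is a type I gene that lies beside Krt8 on chromosome 15. Chromatin around a gene that is in use is commonly open at its start and at enhancers.

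Each list gives the peaks that the caller MACS2 found in 1 sample. List length ran from 40492 peaks in WT 1 to 58297 in cKO 1. Background coverage over the whole genome, recovered from the fold and p columns, lay between 1.75 (cKO 2) and 2.29 (cKO 1) fragments per base. The tissue label was checked against marker genes. All 5 intestinal epithelial markers (Epcam, Cdh1, Vil1, Cdx2 and Cldn7) had a start inside a peak in all 6 lists. This was so for 0 of 5 markers of stratified epithelium (Trp63, Krt5, Krt14, Dsg3 and Sfn, the last covered in 4 lists) and for 0 of the 3 leukocyte markers Ptprc, Cd3e and Itgam. Away from their starts, Trp63, Dsg3, Sfn and Itgam did have a peak in the gene or within 5 kb in all 6 lists. Of 4 mesenchymal markers, 3 (Col1a1, Pdgfra and Vim) also had a start inside a peak in all 6 lists, and 0 of 3 endothelial markers did, although Kdr did in 5. The start of Arid3a was covered in every list, and its 2, 4 and 5 peaks in WT and 4, 2 and 4 in cKO lists overlapped, so this gene gave no check of the genotype labels. In such bulk samples, fewer open cells of a type and less opening per cell cannot be told apart.

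The sequences upstream of 7 keratins are given first, because the classes differed in how often an annotated start lay inside a peak. They are the bases before the RefSeq start on GRCm38.p6 that lie outside annotated exons, in the direction of transcription. RefSeq promoters were found for 36 of the 53 members (37 entries). Krt19 had no entry. Capitals mark 3 motifs, on either strand. The box of letters bound by the general initiation machinery was searched as TATAAA. The site of zinc finger proteins of the GATA family was searched as AGATAA and, in its other common spelling, as TGATAA. The site of KLF and SP proteins was searched as GGGCGGG and, in its other spelling, as GGGTGTG. The first 3 are the simple keratins, on chr15:102004483-102004592 (minus strand), chr15:102027966-102028179 (plus strand) and chr11:99438154-99438403 (minus strand).
Krt8: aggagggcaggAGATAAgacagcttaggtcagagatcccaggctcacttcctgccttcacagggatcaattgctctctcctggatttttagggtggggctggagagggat
Krt18: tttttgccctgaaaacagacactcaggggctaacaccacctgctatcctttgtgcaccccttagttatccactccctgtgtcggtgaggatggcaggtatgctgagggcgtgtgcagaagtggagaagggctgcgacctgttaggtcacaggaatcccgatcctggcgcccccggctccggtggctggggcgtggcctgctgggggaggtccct
Krt20: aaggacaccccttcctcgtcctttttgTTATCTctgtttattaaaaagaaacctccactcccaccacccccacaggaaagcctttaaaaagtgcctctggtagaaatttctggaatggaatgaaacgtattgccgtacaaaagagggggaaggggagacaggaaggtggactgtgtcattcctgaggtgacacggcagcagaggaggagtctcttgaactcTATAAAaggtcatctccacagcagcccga
The other 4 are the epidermal pair Krt5 (chr15:101712906-101713155) and Krt14 (chr11:100206031-100206280), the hair cortex keratin Krt31 (chr11:100050552-100050801) and the inner root sheath keratin Krt71 (chr15:101743110-101743347), all on the minus strand.
Krt5: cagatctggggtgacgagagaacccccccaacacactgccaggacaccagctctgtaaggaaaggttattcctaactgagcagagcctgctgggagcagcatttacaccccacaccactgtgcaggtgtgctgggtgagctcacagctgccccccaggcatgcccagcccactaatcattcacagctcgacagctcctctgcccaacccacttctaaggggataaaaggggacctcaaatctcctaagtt
Krt14: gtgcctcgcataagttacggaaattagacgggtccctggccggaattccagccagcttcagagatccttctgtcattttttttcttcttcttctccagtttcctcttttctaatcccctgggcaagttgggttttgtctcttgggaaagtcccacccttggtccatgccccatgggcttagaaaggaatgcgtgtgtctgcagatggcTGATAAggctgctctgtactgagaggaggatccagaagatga
Krt31: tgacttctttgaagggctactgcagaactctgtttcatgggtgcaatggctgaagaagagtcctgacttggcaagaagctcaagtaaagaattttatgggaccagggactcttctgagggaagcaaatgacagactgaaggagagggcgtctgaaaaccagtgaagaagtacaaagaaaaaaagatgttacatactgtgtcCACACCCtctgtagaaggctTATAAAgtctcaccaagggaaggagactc
Krt71: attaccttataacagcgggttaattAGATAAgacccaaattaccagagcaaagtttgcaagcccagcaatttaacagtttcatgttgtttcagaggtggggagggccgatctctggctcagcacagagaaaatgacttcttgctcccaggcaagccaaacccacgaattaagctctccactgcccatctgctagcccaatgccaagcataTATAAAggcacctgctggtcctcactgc

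Among these stretches, the TATA box letters were present in the simple keratin Krt20 and in the hair and sheath keratins Krt31 and Krt71. Over the whole 300-base RefSeq windows (250 bases before the start and 50 after), TATAAA was found in 13 of 17 hair keratin promoters (76.5%), 4 of 14 skin entries (28.6%) and 2 of 4 simple keratin promoters. The share among all 32851 promoters of the table was 13.6%. The reversed TATA letters overlap the CDX motif TTTATNG, which was in 10 of 17 hair promoters against 10.9% of all. The median G+C content was 59.7% in simple, 50.2% in skin and 45.3% in hair keratin promoters, against 52.7% of all. The ratio of observed to expected CpG was 0.462, 0.232 and 0.305 in that order, against 0.384. These are descriptions of letters and show no binding.

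A 2nd set of sequences comes from the peaks themselves, 100 bases to either side of the summit on the plus strand of GRCm38.p6. The first 3 are from skin keratins that carried a peak in all 6 lists, and capitals mark GCCGCC. The genes lie on the minus strand, where these letters read GGCGGC, a pair of glycine codons in the right frame. They are Krt10 (chr11:99385995-99386195) and Krt1 (chr15:101846049-101846249), both in a coding exon, and Krt77 (chr15:101860038-101860238), in an intron.
Krt10 peak: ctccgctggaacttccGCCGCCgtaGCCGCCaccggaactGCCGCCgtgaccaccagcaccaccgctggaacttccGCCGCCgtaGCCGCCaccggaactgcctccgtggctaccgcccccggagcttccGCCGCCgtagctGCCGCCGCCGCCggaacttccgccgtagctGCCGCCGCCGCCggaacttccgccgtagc
Krt1 peak: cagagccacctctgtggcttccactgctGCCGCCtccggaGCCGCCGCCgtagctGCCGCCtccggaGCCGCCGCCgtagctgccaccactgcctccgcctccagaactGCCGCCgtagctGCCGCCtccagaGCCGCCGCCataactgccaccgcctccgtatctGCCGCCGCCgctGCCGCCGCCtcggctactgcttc
Krt77 peak: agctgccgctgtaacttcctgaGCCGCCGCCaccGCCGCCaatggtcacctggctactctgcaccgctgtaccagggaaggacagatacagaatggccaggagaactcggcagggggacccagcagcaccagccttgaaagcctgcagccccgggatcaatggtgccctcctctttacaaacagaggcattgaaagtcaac
The next 4 were peaks between genes or in an intron that were called in all 6 lists. They lie by Krt8 (chr15:102005524-102005724), in Krt20 (chr11:99436753-99436953), between Krt15 and Krt19 (chr11:100139359-100139559) and upstream of Krt23 (chr11:99496539-99496739). Capitals mark the AP-1 motif TGACTCA or a GATA site, on either strand.
Krt8 peak: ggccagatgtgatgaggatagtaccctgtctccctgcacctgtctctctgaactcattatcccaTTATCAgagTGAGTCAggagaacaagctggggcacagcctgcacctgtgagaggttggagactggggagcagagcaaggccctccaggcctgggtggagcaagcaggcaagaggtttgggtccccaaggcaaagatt
Krt20 peak: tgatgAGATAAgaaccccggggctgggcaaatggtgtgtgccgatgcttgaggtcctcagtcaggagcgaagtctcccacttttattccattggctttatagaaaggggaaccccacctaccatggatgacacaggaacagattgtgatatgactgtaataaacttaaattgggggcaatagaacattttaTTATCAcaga
Krt15 and Krt19 interval: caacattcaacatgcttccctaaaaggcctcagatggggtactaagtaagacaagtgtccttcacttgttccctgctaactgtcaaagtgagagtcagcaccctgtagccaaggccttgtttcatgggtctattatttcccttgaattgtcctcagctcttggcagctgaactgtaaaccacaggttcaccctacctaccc
Krt23 peak: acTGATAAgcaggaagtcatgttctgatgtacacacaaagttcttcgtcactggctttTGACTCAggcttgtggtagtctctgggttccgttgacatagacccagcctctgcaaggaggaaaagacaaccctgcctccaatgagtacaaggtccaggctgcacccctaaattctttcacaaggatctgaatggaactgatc

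To ask which keratins were open, peaks with their summit in the gene or within 5 kb of it were assigned once, to the nearest transcription start site (TSS). All 5 simple keratins had a peak in all 6 lists, against 4 of 20 skin keratins, 6 of 23 hair keratins and 4 of 5 unclassed keratins. The share among all protein-coding genes, which were not matched for length or spacing, was 59.2%. For a start inside a peak in all 6 lists the counts were 4 of 5 simple, 1 of 20 skin, 0 of 23 hair and 3 of 5 unclassed keratins, against 56.1% of all genes. The simple keratin without one was Krt20, whose start was covered in WT 2 only. The 1 skin keratin was Krt10. Skin and hair keratins were therefore not uniformly free of peaks: of the 43, 10 had a peak in all 6 lists, 14 in some and 19 in none, and 6 had a start inside a peak in at least 1 list.

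**Figure D1:**
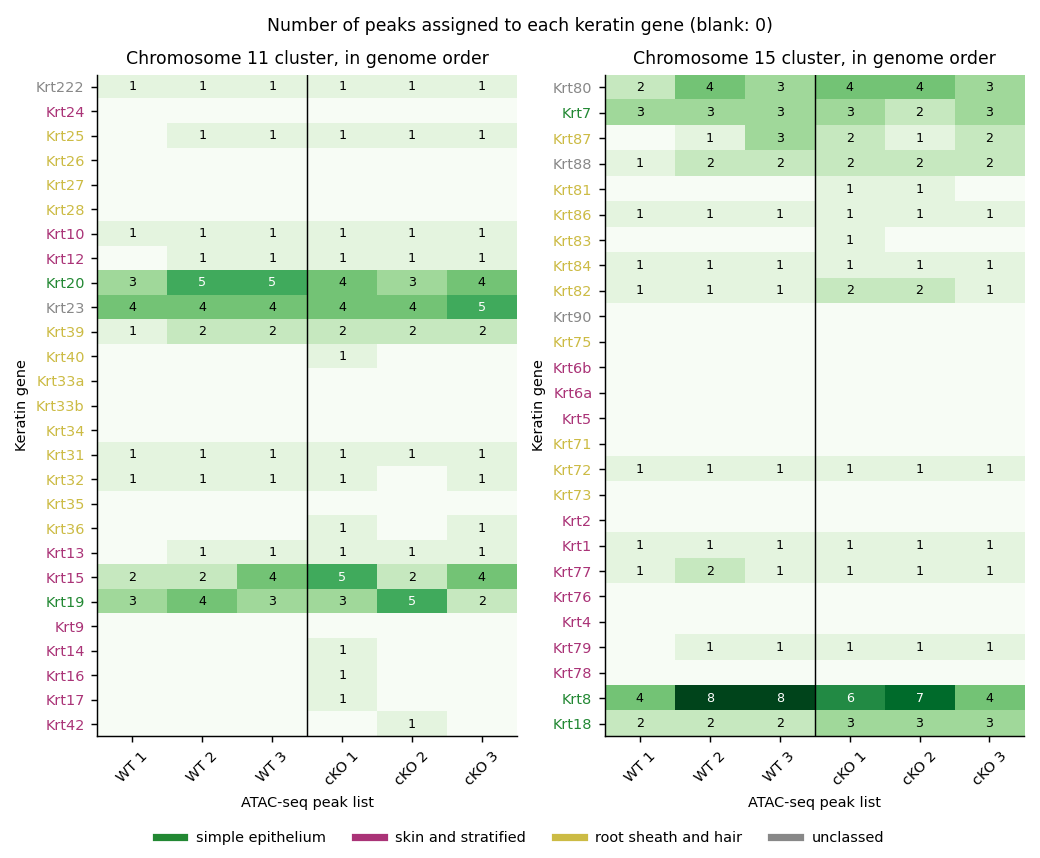
Number of peaks assigned to each keratin gene (rows, in genome order within each cluster) in each of the 6 lists (columns; darker green is more peaks, blank is 0), with gene names coloured by class. Krt8, with 4 to 8 peaks, and the other simple keratins stand out from long blank runs of skin and hair genes.

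The 20 genes with no peak in any list were the skin keratins Krt2, Krt4, Krt5, Krt6a, Krt6b, Krt9, Krt24, Krt76 and Krt78, the hair and sheath keratins Krt26, Krt27, Krt28, Krt33a, Krt33b, Krt34, Krt35, Krt71, Krt73 and Krt75, and Krt90. They include Krt5 and Krt71, whose upstream sequences are printed above. Krt14, the type I partner of Krt5, had 1 peak in 1 list, cKO 1, with a fold of 3.38. That list was the longest, and Krt16, Krt17, Krt40 and Krt83 also had their only peak in it. Krt42 had its only peak in cKO 2, and Krt36 and Krt81 each had a peak in 2 cKO lists.

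**Figure D2:**
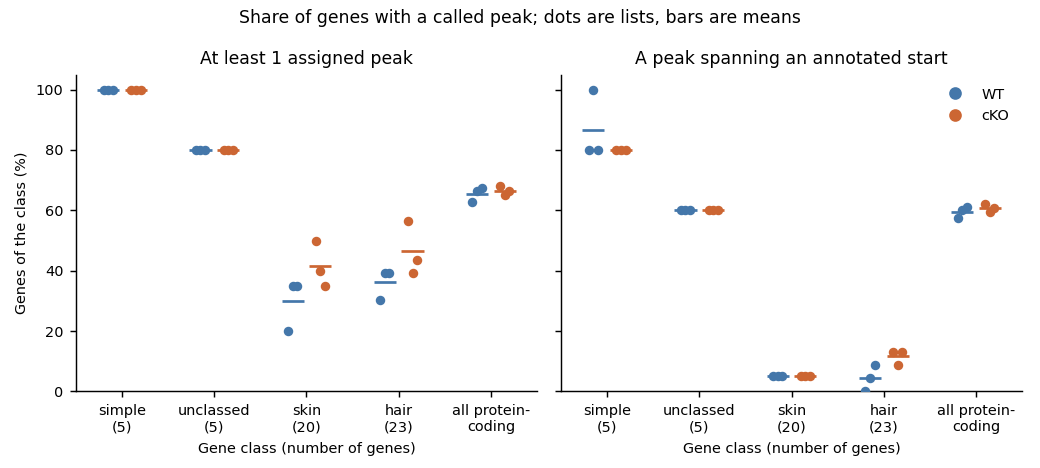
Percentage of the genes of each class with at least 1 assigned peak (left) and with an annotated start inside a peak (right). Each dot is 1 list (WT blue, cKO orange), bars are genotype means, and numbers below are genes per class; simple keratins lie at 80% to 100% in both panels and skin and hair keratins at 0% to 13.04% in the right panel.

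A narrower definition of a promoter peak, with the summit from 1000 bp upstream to 100 bp downstream of a start, gave lower counts. It was met in all 6 lists by 1 of 5 simple keratins (Krt7), 1 of 43 skin and hair keratins (Krt10) and 2 of 5 unclassed keratins (Krt23 and Krt80), against 38.0% of all genes. Krt8 met it in 3 lists and Krt18 in 4, although their starts were covered in all 6. Their peaks were broad, and the summit fell outside the window in the other lists. Of the marker genes, 4 of 5 intestinal ones (Epcam in 5 lists), 0 of 5 stratified ones and 2 of 4 mesenchymal ones (Col1a1 and Pdgfra) met this definition in all 6 lists.

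Krt8, the type II keratin of simple epithelia, had the most peaks of the family when summed over the lists, although Krt23 had as many in WT 1 and 1 more in cKO 3. It had 4, 8 and 8 in WT and 6, 7 and 4 in cKO lists. The peak over its start spanned chr15:102002928-102007430 with a summit at −1142 bp, in an intron of the lincRNA gene Gm36026 whose RNA and regulation were not measured. Other peaks called in all 6 lists lay at −4815 bp, and past the end of the gene at 8607 and 9901 bp from the start. The AP-1 letters in the printed Krt8 peak begin 27 bases before its summit, and a GATA site begins 36 bases before it. TGACTCA was in 1 of the 12 simple keratin peaks called in all 6 lists, against 8.17% of 71286 peaks merged over the lists.

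The height of a summit was recovered as the number of fragments over it and divided by the genome-wide background of its list. The highest Krt8 summit stood at 45.5, 100.5 and 111 times background in WT and 129, 88 and 90.4 times in cKO lists. This placed it between the 92.8th and 96.8th percentile of all peaks of a list by height. Its highest fold enrichment, the caller's ratio of the summit to its local background, was only 3.39, 3.99 and 3.49 in WT and 2.85, 3.76 and 2.71 in cKO lists. By fold it lay at percentile 11.02, 17.9 and 10.9 in WT and 4.51, 14.6 and 2.87 in cKO lists. The highest summit of Krt8 was thus among the highest of every list, and no Krt8 peak lay above the 17.9th percentile by fold.

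The fold divides a summit by its local background. The highest local background of a Krt8 peak, not always that of the peak over the start, was 13.4, 35.5 and 37.9 times the genome-wide value in WT and 54.1, 26.8 and 36.6 times in cKO lists. Ranked among the 13755 to 14927 genes with a peak, Krt8 was number 13, 2 and 3 in WT and 2, 3 and 5 in cKO lists. No input control was described for these libraries, so the local background was taken from the sample itself, and wide openness around a summit lowers the fold by construction.

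Krt18, the type I partner of Krt8, had its start covered by a peak at chr15:102027839-102029026 in all 6 lists. A further peak at chr15:102033480-102035040, 6290 bp from the start and beyond the gene, was also called in all 6. The highest summit stood at 28.0, 61.5 and 67.7 times background in WT and 86.5, 45.7 and 61.9 times in cKO lists. WT 1 was the lowest of the 6, and the other WT lists lay within the cKO range. Fold at the start peak was 4.86, 6.67 and 6.59 in WT and 5.98, 5.62 and 5.14 in cKO lists. The letters searched for were not in the 214 bases printed for Krt18.

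Krt19, a type I keratin of ducts and progenitor cells, had 3, 4 and 3 peaks in WT and 3, 5 and 2 in cKO lists. Its main peak, chr11:100144988-100146789, covered an internal annotated start (position 100146120) in all 6 lists and the outermost start (100148665) in none. The highest summit stood at 39.3, 95.6 and 97.0 times background in WT and 93.9, 56.6 and 78.9 times in cKO lists. The highest local background of a Krt19 peak was 10.5, 16.99 and 19.6 times the genome-wide value in WT and 28.8, 15.4 and 20.3 times in cKO lists, rank 53 to 133 among genes with a peak. Krt8 and Krt19 were the simple keratins whose local background exceeded the 99th percentile of all peaks (7.92 in WT 1 to 21.5 in cKO 1) in every list.

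Krt20, the type I keratin of differentiated villus cells, had 3, 5 and 5 peaks in WT and 4, 3 and 4 in cKO lists. The peaks called in all 6 lists lay in an intron at 1297 bp and between genes at −1533 and −3328 bp, and the start itself was covered in WT 2 only, with a fold of 3.53. The highest summit stood at 16.6, 24.2 and 32.3 times background in WT and 35.8, 23.4 and 28.9 times in cKO lists, the lowest of the 5 simple keratins in each list. The printed Krt20 intron peak holds a GATA site on each strand and the TATA letters on the reverse strand. GATA sites were in 4 of the 12 simple keratin peaks called in all 6 lists, against 20.5% of all merged peaks.

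Krt7, the type II simple keratin of ducts and glands, had its start region open at chr15:101410749-101413096 in all 6 lists. The fold was 6.17, 5.61 and 7.14 in WT and 6.38, 7.81 and 6.10 in cKO lists. Its percentile by fold was 61.4, 42.7 and 59.9 in WT and 51.3, 67.9 and 51.5 in cKO lists, above Krt8 and Krt19 in each list. By height it stood at 28.0, 37.9 and 64.2 times background in WT and 70.3, 49.7 and 56.0 times in cKO lists, below Krt8 in each list. Within each list the order by height put Krt8 first, Krt19 next and Krt20 last, with Krt18 and Krt7 between them. The ranges over the 6 lists of neighbours in this order overlapped.

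**Figure D3:**
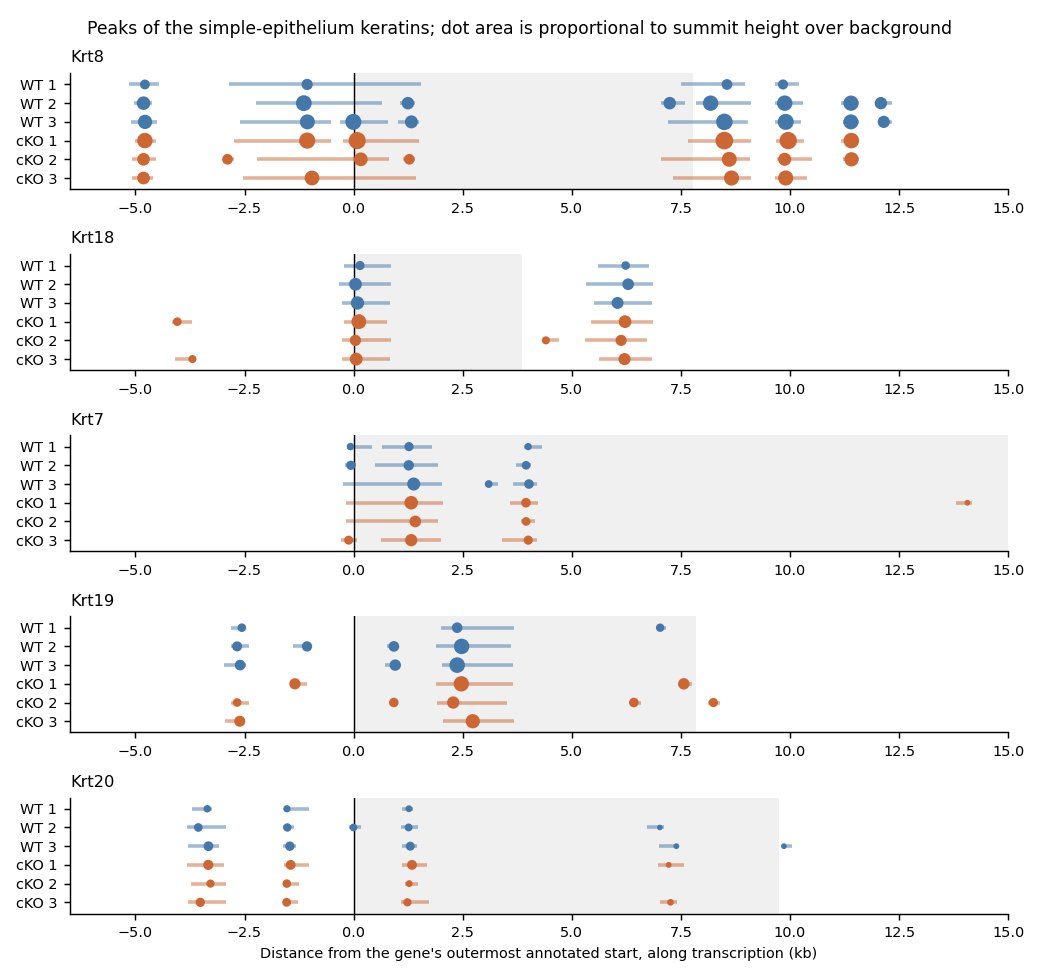
Peaks of the 5 simple keratins in each list (rows; WT blue, cKO orange), as bars from start to end with a dot at the summit whose area is proportional to height over background. The x axis is the distance in kb from the outermost annotated start along transcription and grey is the gene body; of 27 merged peaks 12 recur in all 6 lists and 8 are in a single list.

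Across the simple keratins, the median peak of a list lay at the 4.51st to 14.2nd percentile by fold, at the 72.7th to 82.1st by height and at the 93.4th to 99.1st by local background. For hair keratins the medians were 35.6 to 61.0 by fold and 25.2 to 35.1 by height. For skin keratins they were 23.3 to 43.1 by fold and 21.8 to 45.8 by height. By fold the simple keratins were thus lowest and by height highest of the 3 classes in every list. The median local background of skin and hair keratin peaks was 1.24 to 2.35 times the genome-wide value of the list.

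**Figure D4:**
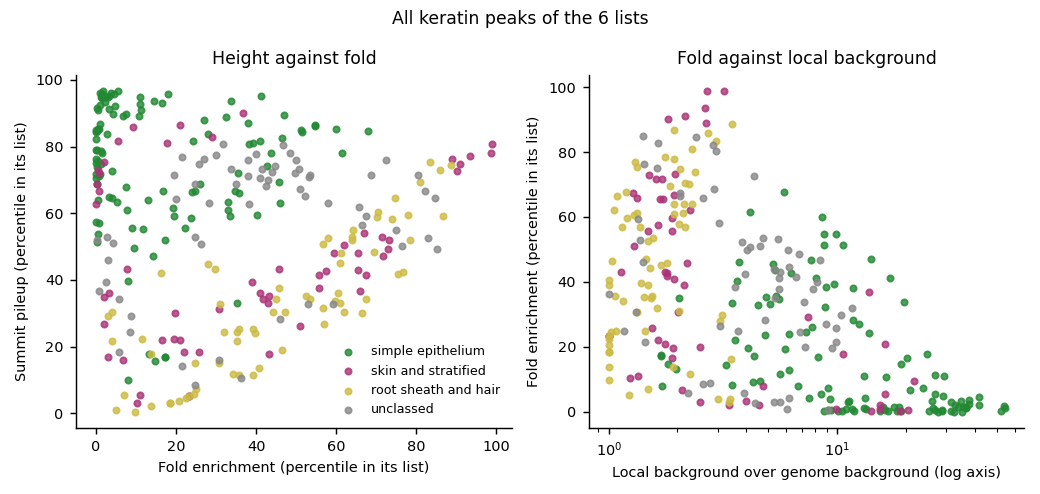
Every keratin peak of the 6 lists as a dot coloured by class, with summit height against fold enrichment (left, both as percentiles of the peak's own list) and fold percentile against local background over genome background (right, log x axis). Simple keratin peaks gather at low fold, large height and high local background, up to 54.1 times, while hair keratin peaks lie at a local background of about 1.0 to 3.46 times.

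Of the skin keratins, Krt10, the type I keratin of the upper epidermal layers, had the highest fold. It was 10.6, 13.02 and 14.3 in WT and 16.2, 12.8 and 14.1 in cKO lists, at the 88.97th to 98.98th percentile of a list. The peak (chr11:99385878-99386831) lay in a coding exon, 2 bp from an internal annotated start (99386097), and the outermost start of the gene (99389364) was covered in no list. Its type II partner Krt1 had 1 peak in each list (chr15:101845605-101846565), also in a coding exon, 445 bp from an internal annotated start (101846594). No annotated start of Krt1 was covered in any list. Its fold was 3.99, 7.22 and 7.85 in WT and 7.90, 7.73 and 6.04 in cKO lists.

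Both summits sat on repeated GCCGCC letters, as printed above. The window held 12 overlapping copies in Krt10 and 14 in Krt1, and 3 in Krt77, against 0 in the other 27 keratin peaks called in all 6 lists. Among all 71286 merged peaks, 12.8% held 1 copy or more and 0.550% held 5 or more, with 15 as the largest number. The G+C content was 74.1% in Krt10 and 73.1% in Krt1, at the 96.4th and 95.6th percentile of all merged peaks, whose median was 51.2%. Krt1 and Krt10 proteins are known for long glycine-rich ends. Whether the repeated letters affect mapping or cutting at these exons was not tested.

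Krt15, a keratin of basal and hair bulge cells, differed from the other skin keratins in its surroundings. It had 2, 2 and 4 peaks in WT and 5, 2 and 4 in cKO lists, with a local background of 7.42, 13.8 and 16.2 times the genome-wide value in WT and 21.8, 10.6 and 16.2 times in cKO lists. The peak called in all 6 lists (chr11:100138542-100140712) lies between Krt15 and Krt19, and was assigned to Krt15 because the start of Krt15 is the nearer one, at −3531 bp. No start of Krt15 was covered by a peak in any list. Krt77, of sweat gland ducts, had an intronic peak 9458 bp from its nearest annotated start with a fold of 3.804 to 6.75.

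The other skin keratins with a peak in 5 of 6 lists were Krt12 of the cornea, Krt13 of moist stratified epithelia and Krt79 of hair follicle openings. All 3 were missing in WT 1, the shortest list. Their folds over the other 5 lists were 5.49 to 8.94, 5.40 to 8.77 and 5.32 to 7.44, and the summit lay 7400, 5088 and 1082 bp from the nearest annotated start, which is internal at Krt13 and Krt79.

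Among hair and sheath keratins, 6 had a peak in all 6 lists: Krt31, Krt39, Krt72, Krt82, Krt84 and Krt86. The highest fold was at Krt84, a type II keratin of hair and tongue, with 7.70, 11.4 and 11.7 in WT and 11.5, 10.1 and 8.24 in cKO lists. Krt86, a type II keratin of the hair cortex, had folds of 5.85, 7.80 and 9.87 in WT and 11.1, 8.20 and 8.85 in cKO lists. The summits of these 6 constant peaks lay 3000 to 12296 bp from the nearest annotated start, in a coding exon at Krt86, in introns at Krt31 and Krt39 and outside genes at the other 3. None of the 6 constant hair peaks was at a start.

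The start of a hair keratin was covered in 5 of 6 lists at Krt39, in 3 at Krt87 and in 1 at Krt32, with 5 of the 23 genes covered in at least 1 list. WT 1 was the list without a peak at the start of Krt39. Krt25, Krt32 and Krt87 had a peak in 5 of 6 lists. The folds were 3.35 to 5.09 at Krt25, 3.95 to 8.07 at Krt32 and 2.96 to 4.66 at Krt87. At Krt25 the local background was at the genome-wide value in the 5 lists (0.998 to 1.00 times).

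Of the unclassed keratins, Krt23 and Krt80 had the most peaks. Krt23 had 4, 4 and 4 peaks in WT and 4, 4 and 5 in cKO lists, with its start region covered in all 6 and a local background of 4.17 to 11.6 times. Krt80, a keratin of many epithelia, had 2, 4 and 3 peaks in WT and 4, 4 and 3 in cKO lists, and a local background of 4.04 to 9.85 times. Krt222, a keratin-like gene at the edge of the cluster, had 1 peak at its start in each list, with a fold of 5.01 to 10.3 over a local background of 1.37 to 1.64 times. Krt88 had a peak in a coding exon 5763 bp from its start in each list, with a fold of 6.78 to 10.4.

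Genes whose products bind keratin filaments or build the cornified layer were compared from lists of names. All 10 genes of desmosome and linker proteins of simple and other epithelia (Dsp, Dsg2, Dsc2, Jup, Pkp2, Pkp3, Plec, Ppl, Evpl and Eppk1) had a peak in all 6 lists, against 59.2% of all genes, and 9 had their start covered in all 6, against 56.1%. Eppk1 was the exception. The narrower promoter peak was found in all 6 lists at 6 of the 10. Of 11 genes of the epidermis (Dsg1a, Dsg1b, Dsg3, Dsc1, Dsc3, Pkp1, Lor, Flg, Ivl, Tgm1 and Tgm3), 4 had a peak in all 6 lists (Dsg3, Pkp1, Lor and Tgm1). A start was covered in all 6 lists at 2 of the 11, Pkp1 and Tgm1, and in 5 lists at Dsc3. Pkp1 encodes a desmosomal plaque protein and Tgm1 a cross-linking enzyme of the cornified envelope.

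The genotypes were then compared to ask whether loss of Arid3a went with other open sites in the clusters. With 3 lists against 3, the exact two-sided permutation test cannot give a p below 0.1, so no single comparison could pass 0.05. Simple keratins had 15, 22 and 21 peaks in WT and 19, 20 and 16 in cKO lists, 19.3 ± 3.79 and 18.3 ± 2.08 (SD, n = 3, exact permutation p = 0.7). The genotypes overlapped.

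Skin and hair keratins together had 12, 19 and 22 peaks in WT and 30, 20 and 22 in cKO lists, 17.7 ± 5.13 and 24 ± 5.29 (SD, n = 3, exact permutation p = 0.3). The difference of 6.33 peaks was 3.5 without WT 1, 3.33 without cKO 1 and 1 at equal list length. It was 7 without WT 2, 8.5 without WT 3, 8.33 without cKO 2 and 7.33 without cKO 3. The number of these 43 genes with a peak was 11, 16 and 16 in WT and 23, 17 and 17 in cKO lists, 14.3 ± 2.89 and 19 ± 3.46 (SD, n = 3, exact permutation p = 0.1). Every cKO list lay above every WT list, and p is the smallest this design can give. Among all protein-coding genes the share with a peak overlapped between genotypes, at 62.7, 66.3 and 67.3% in WT and 68.0, 65.0 and 66.4% in cKO lists. When each list was cut to the same number of its strongest peaks, the difference went from 4.67 to 1 gene (exact permutation p = 0.7). Without WT 1, the shortest list, or with only peaks of −log10 q of at least 5, it was 3, and without cKO 1, the longest, 2.67. Without WT 2 or WT 3 it was 5.5, and without cKO 2 or cKO 3 it was 5.67. Windows of 2 and 10 kb gave 3.67 and 4.

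Skin and hair genes with a promoter peak numbered 2, 3 and 4 in WT and 8, 4 and 6 in cKO lists, 3 ± 1 and 6 ± 2 (SD, n = 3, exact permutation p = 0.2). At equal list length the difference was 0. With only peaks of −log10 q of at least 5 it was 0.667 genes, and by a covered start 1.67 genes. With 1 sample left out it ran from 2 (without cKO 1) to 4 (without cKO 2). The difference between the simple class and the skin and hair class in the share of genes with a promoter peak was 35.3, 73.0 and 70.7 percentage points in WT and 41.4, 50.7 and 46.0 in cKO lists (exact permutation p = 0.4). It was positive in every list. The genotype difference of −13.6 points was −25.8 without WT 1, −6.98 without WT 2 and −8.14 without WT 3.

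Single simple keratins were compared in 30 ways, 6 measures for each of 5 genes. In 4 of the 30 the genotypes did not overlap, each with an exact permutation p of 0.1 (n = 3). Krt18 had 2 peaks in each WT list and 3 in each cKO list. Every cKO list was above every WT list in number of peaks for 0.565% of all 21938 protein-coding genes and below for 0.214%. These include genes without any peak, and the share among genes with a peak in all 6 lists was not counted. The further peak lay in a merged peak at −3694 bp from the start in cKO 1 and cKO 3 and at 4405 bp in cKO 2, so the 3 cKO lists did not share it. The highest local background of a Krt18 peak was 5.37, 8.95 and 9.84 times the genome-wide value in WT and 14.1, 10.1 and 11.7 times in cKO lists. In cKO 2 this value came from the further peak at 4405 bp, so it is not separate from the number of peaks. Its percentile, a rank of the same value, was likewise higher, and a share over all genes was not counted for the percentile. For the local background, 1.22% of 12978 genes with a peak in all 6 lists had every cKO list above every WT list and 0.555% below.

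Krt19 was the other case. Its highest fold percentile was 32.4, 41.2 and 33.8 in WT and 11.3, 27.0 and 16.4 in cKO lists, lower in every cKO list. This was so for 7.40% of genes, and the reverse for 4.09%. By height the same gene overlapped between genotypes, at the 88.8th, 95.1st and 93.8th percentile in WT and the 91.0th, 87.9th and 93.0th in cKO lists (exact permutation p = 0.5, n = 3). For Krt7, the 1 simple keratin with a promoter peak in all 6 lists, the fold percentile was 54.7 ± 10.4 in WT and 56.9 ± 9.51 in cKO lists (SD, n = 3, exact permutation p = 0.9).

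No keratin had a peak in all lists of 1 genotype and none of the other. Among all genes 0.0638% had a peak in 3 cKO lists and 0 WT lists, and 0.0547% the reverse. After peaks of the 6 lists were merged where they overlapped, 73 merged peaks belonged to keratins, 30 of them called in all 6 lists. Of the 73, 0 were called in all lists of 1 genotype and none of the other, against 0.431% of 49654 merged peaks near genes for cKO and 0.101% for WT. Single lists supplied 17 of the 73.

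The fold at merged peaks called in all 6 lists was compared by limma on the log2 scale after quantile normalisation, with Benjamini-Hochberg adjustment over all 32748 such peaks. At an adjusted p under 0.05, 0 peaks were called (0%), and 7.37% had an unadjusted p under 0.05. The smallest adjusted p was 0.298. Of the 30 keratin peaks 0 were called and 2 had an unadjusted p under 0.05. These were the peak upstream of Krt23, printed above, with a log2 difference cKO minus WT of −0.48 (SE 0.186, limma adjusted p = 0.629), and the exon peak of Krt10 with 0.25 (SE 0.109, limma adjusted p = 0.670). With the recovered height in place of the fold, the Krt10 estimate was 0.04 (SE 0.134, limma adjusted p = 0.965) and that of the Krt23 peak −0.49 (SE 0.179, limma adjusted p = 0.454). Leaving out cKO 2 gave 10 of 31 keratin peaks with an unadjusted p under 0.05, against 6462 of all 33930 peaks in that fit, and a smallest limma adjusted p of 0.135 among keratins.

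Of the 12 simple keratin peaks in this fit, 2 had a higher and 10 a lower estimate in cKO, from −0.31 (SE 0.179, limma adjusted p = 0.697) at the start of Krt19 to 0.06 at the Krt20 peak at −1533 bp. Of all peaks in the fit, 46.3% had a higher estimate. Their median was −0.045, against −0.018 for all peaks. With the recovered height in place of the fold, 7 of the 12 were higher in cKO, against 50.4% of all peaks, and the median was 0.024. Of the 6 hair keratin peaks, 5 had a higher estimate in cKO, from −0.03 at Krt84 to 0.38 at Krt31, with limma adjusted p from 0.681 to 0.955. With the recovered height 2 of the 6 were higher, Krt31 at 0.30 and Krt39 at 0.26, and the other 4 lay between −0.28 and −0.01.

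**Figure D5:**
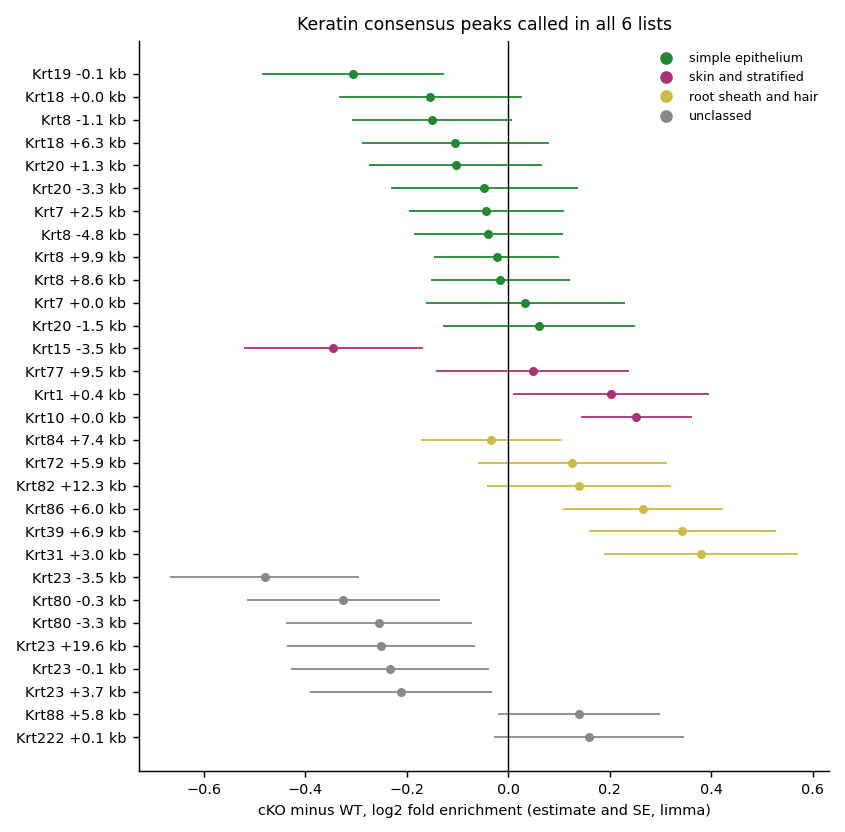
limma estimates (dots) and standard errors (bars) of cKO minus WT log2 fold enrichment for the 30 keratin peaks called in all 6 lists, coloured by class and named by gene and distance in kb from the nearest annotated start. Estimates run from −0.48 to 0.38 and 0 of the 30 passed an adjusted p of 0.05.

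The ARID3 letters ATCAAA or ATTAAA, searched because the study concerns this family, were in 0 of the 12 simple keratin peaks called in all 6 lists, in 1 of 6 hair keratin peaks (Krt31), and in 16.0% of all merged peaks. HNF4 letters (CAAAGTCCA or CAAAGTTCA) were in 0 of the 12 and in 1 of 8 unclassed keratin peaks (Krt23, in an intron), against 2.51%. The CTCF core letters (AGGGGGC or AGGTGGC or AGATGGC) were in 0 of the 12, 1 of 4 skin (Krt1) and 1 of 6 hair keratin peaks (Krt86), against 16.3%. KLF/SP letters were in 3 of the 12 against 18.97%. The windows were 201 bases long and both strands were read.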

How the data were processed

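ATAC-seq libraries from intestinal crypts, 3 per genotype, were trimmed by the authors with Trim Galore, aligned with BWA to GRCm38 and cleared of blacklisted regions in nf-core/atacseq, and MACS2 called narrow peaks in each sample. The versions of the aligner and the peak caller are not given in the sources used here. The fold (a ratio of summit pileup to local background), the −log10 p and the −log10 q were used as deposited by the authors. The deposited score was not used.

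Gene models were GENCODE M21 and the sequence was GRCm38.p6. Every peak end lay within its chromosome. Samples were grouped by the genotype in the labels, and 0 of 15 pairs of lists were identical. The fold is (pileup + 1) / (background + 1) and p a Poisson probability, so both columns together give the pileup, which came out whole for 100% of peaks (tolerance 0.002 in −log10 p). The commonest background of a list was taken as its genome-wide coverage. Total read numbers were not used here, so depth is known only through this coverage, and the lists give no counting error for single peaks.

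Peaks with a summit in a gene or within 5 kb were assigned to the nearest TSS. In each list 1 peak in a keratin window was nearer to Smarce1 and was left out. Peaks overlapping by at least 1 base were merged. Values per list were compared by the exact permutation test over 20 assignments, and merged peaks by limma 3.58.1 (R 4.3.3, trend, quantile normalisation), tested on simulated data. The software was scipy 1.17.1, pandas 2.3.3, numpy 2.4.6, matplotlib 3.10.9 and Python 3.11.15. A marker gene from the lists is not reported here. The members, classes and gene lists were chosen with earlier results of these data known. Named genes were the 5 simple keratins, Krt1, Krt5, Krt10, Krt14, Krt31 and Krt71, keratins with a peak in at least 5 lists or a promoter peak in at least 3, and those with a peak of 1 genotype. Genes named from a count of 5 or fewer outside that rule, and those without a peak, were named after their values were seen. The covered-start measure, the height percentile and the limma fit on recovered pileup were added after seeing the data. Alternatives were lists cut to their 40492 strongest peaks, a minimum −log10 q of 5, windows of 2 and 10 kb, other promoter and merging rules, other scalings, and leaving out each sample.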

Additional observations from a re-analysis of the deposited data

How the results depend on the processing

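Over 9 results and 100 alternatives, 84 alternatives neither reversed a sign nor moved a count, 8 reversed a sign and 8 moved a count. The 84 include differences that shrank, such as skin and hair genes with a promoter peak, from 3 to 0 at equal list length. For differences between genotypes, the 84 hold those whose sign was not reversed, including blocked comparisons, whose differences cannot change. For peaks or genes of 1 genotype and for limma calls, they hold counts that did not move. The exact permutation p was under 0.05 in 0 alternatives, the smallest being 0.1. With 3 lists against 3 it cannot be lower, so this threshold tested no alternative. The fold percentile at simple keratin promoters, 2.20 higher in cKO, became −1.26 at equal list length and −7.14 when a covered start defined the promoter, which adds Krt8, Krt18 and Krt19 to Krt7. The difference in promoter share became 0.465 percentage points with promoters of 1000 bp to either side. Requiring a peak in at least 2 of 3 lists of 1 genotype and 0 of the other gave 7 keratin peaks (5 in cKO, at Krt15, Krt18, Krt36, Krt81 and Krt82, and 2 in WT, at Krt8 and Krt87) and 2 genes (Krt36 and Krt81), where the stricter rule gave 0. The share over all merged peaks and genes was not counted for this looser rule or with a sample left out. These counts are therefore not read as particular to keratins. By the stricter rule, cKO peaks also outnumbered WT peaks over all merged peaks near genes (0.431% against 0.101%). Leaving out 1 sample at a time gave fold percentile differences from −5.88 to 5.56, simple keratin peak differences from −3.17 to 0.333, 0 to 3 peaks and 0 to 1 gene of 1 genotype. The −5.88, without cKO 3, is a mean over Krt19 and Krt7, so it is not like the others, which used Krt7 alone. For Krt7 alone the sign turned without WT 2 (−3.78) and without cKO 2 (−3.29). The sign of the simple keratin peak difference turned without WT 2 (0.333) and without cKO 3 (0.167). The causes were not tested.

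The labels do not say whether samples with the same replicate number were paired. The correlations of deviations between same-numbered samples were −0.311, 0.0143 and 0.127. Those between differently numbered samples ran from −0.351 to 0.349. With 3 samples per genotype these values cannot decide whether samples were paired. With the replicate number as a block, differences stayed as they were by construction and the exact sign-flip p was 0.75 for simple keratin peaks, 0.5 for skin and hair peaks, 0.25 for skin and hair genes with a peak and with a promoter peak, 0.5 for the difference in promoter share and 1 for the fold percentile, where 0.25 is the smallest possible. The blocked limma fit called 0 of 30 keratin peaks and 4 of all peaks (3 higher, 1 lower). Median centring called 1 of all peaks and the recovered height 4, with 0 keratin peaks in each.

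Depth beyond the recovered coverage is unknown, and the presence of a small peak near the calling threshold is limited by it.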

Other observations

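The 57 keratin-associated protein genes (Krtap), which encode the matrix between hair keratin filaments, were left out of the family and counted apart. A start covered by a peak in all 6 lists was found for 0 of the 57, in some lists for 5 and in none for 52, against 56.1% of all protein-coding genes in all 6 and 36.1% in none. Krtap5-3 was covered in 5 lists, Krtap2-4 and Krtap17-1 in 2, and Krtap3-1 and Krtap24-1 in 1. For any assigned peak the counts were 2 in all 6 lists, 13 in some and 42 in none, against 59.2% of all genes in all 6 and 28.1% in none.

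Taken by length, the clusters were not poor in peaks. The cluster on chromosome 11 held 33.4 to 53.5 peaks per Mb and that on chromosome 15 held 43.2 to 69.1, against 14.9 to 21.4 per Mb over all chromosomes analysed. These counts per Mb include peaks assigned to genes that are not keratins. Per gene, keratins held 0.660 to 1.13 assigned peaks, against 1.35 to 1.88 over all protein-coding genes, and fewer in every list. This count grows with the length of a gene and shrinks where neighbours share a window, and neither was matched.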
